A study of Mus musculus with 4 samples.

Results

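The genes described here are 45 cyclins, cyclin-dependent kinases (CDKs), DNA replication genes and mitosis genes, in mouse retina at postnatal day 12. They were taken by symbol from a table of 23021 rows per library, which became 21831 genes once rows that share a symbol were summed and small RNAs were left out. Each of the 45 symbols was found on 1 row, and all 45 carried an OK status in all 4 libraries. By role they comprised 2 proliferation marks, 8 cyclins, 4 CDKs, 3 E2F transcription factors, 8 origin licensing genes, 4 genes of DNA and nucleotide synthesis, 7 mitotic kinases and checkpoint genes, 6 spindle and cytokinesis genes and 3 centromere genes.

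Retinas of wild-type (WT) control mice and of mice labelled Ezh2-cKO, both of slc:ICR background, were dissociated with trypsin and sorted on the surface protein Cd73, which marks rod photoreceptors and their precursors. In the Ezh2-cKO mice a floxed Ezh2 gene, which encodes the enzyme that trimethylates lysine 27 of histone H3, is deleted by Cre driven from Dkk3 in retinal progenitors. The controls were littermates. For each genotype, 1 library came from the sorted Cd73-positive cells (Cd73P) and 1 from the Cd73-negative remainder (Cd73N), 4 libraries in all. With 1 library per group no difference could be set against the spread between replicates, so no test was made and no difference below has a replicate check.

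The values are FPKM, a count of sequenced fragments scaled to the length of a gene's exons and to the depth of the library, so that levels can be compared between genes. A difference is given as log2(FPKM + 1) of one library minus that of the other, with a standard error (SE) from the deposited bounds of each FPKM, which covers counting error only. The pseudocount of 1 understates the difference of low genes, so plain FPKM ratios are given beside it for many of the genes described. A gene is called higher or lower where the ratio of FPKM + 1 reached 1.5-fold.

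The libraries matched their sort, and 10 of 10 rod markers with an OK status in all libraries, among them Nrl and Nr2e3, were higher in Cd73P in both genotypes. Müller glia markers were lower in Cd73P in 12 of 12, again in both. FPKM summed over 12 Müller glia markers, among them Glul, Rlbp1 and Slc1a3, was 1123 in Cd73N WT and 5769 in the library labelled Cd73N Ezh2-cKO. In Cd73P the same sum was 117.0 in WT and 243.3 in Ezh2-cKO. Within Cd73N, all 12 were higher in the library labelled Ezh2-cKO, as were 7 of 13 retinal progenitor markers, several of which Müller glia also express. The Ezh2 gene itself went against its label in Cd73N, with 14.1 FPKM in WT and 15.9 in Ezh2-cKO, and stood in Cd73P at 5.38 and 3.45. The values are per gene, so loss of the floxed part of Ezh2 was not tested. Xist stood at 52.2 and 47.0 FPKM in the WT libraries and at 240.4 and 95.6 in those labelled Ezh2-cKO, whereas 4 Y-linked genes summed to 26.8 and 27.9 against 0.716 and 0.496. Genotype and the sex of the animals therefore cannot be told apart in these libraries. Depth estimated from the deposited bounds was 1.15, 1.04 and 1.07 times that of Cd73N WT. Fewer cells of a type and less RNA per cell cannot be told apart in such bulk samples.

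Cells enter the cycle when D-type cyclins bind Cdk4 and Cdk6 and, together with cyclin E and Cdk2, phosphorylate the retinoblastoma protein, which releases E2F factors. E2F factors then drive genes of origin licensing (Cdc6, Cdt1 and the Mcm2 to Mcm7 helicase) and of DNA synthesis. Cyclins A and B with Cdk1, Aurora and Polo kinases and the spindle motors carry the cell through mitosis. In the mouse retina the last progenitors leave the cycle in the first postnatal weeks, earlier in the centre than at the edge. Müller glia, the radial glia born last, express D-type cyclins, whereas rods are post-mitotic neurons.

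The defining marks of dividing cells were near the bottom of the scale in all 4 libraries. Mki67, which encodes the Ki-67 protein of cycling nuclei, was 0.606 FPKM in Cd73N WT, 0.632 in Cd73N Ezh2-cKO, 0.0320 in Cd73P WT and 0.0661 in Cd73P Ezh2-cKO. Top2a, the topoisomerase that untangles replicated chromosomes, was 0.564, 0.515, 0.0608 and 0.109 FPKM in the same order. Mki67 was lower in Cd73P by 1.5-fold or more in both genotypes, with differences of -0.64 and -0.61, and Top2a, at -0.56 and -0.45, was short of the line. Between genotypes the Mki67 difference in Cd73N was 0.02 ± 0.045 (counting SE) and the Top2a difference -0.05 ± 0.062. In Cd73P the plain ratio of Ezh2-cKO to WT was 2.07 for Mki67 and 1.79 for Top2a, which at these levels were 0.05 ± 0.018 and 0.06 ± 0.033 on the log2(FPKM + 1) scale. Another 12 genes also stayed under 1 FPKM in every library, namely Ccnb1, Ccnb2, Cdk1, E2f2, Cdc6, Bub1, Aurkb, Kif11, Kif23, Tpx2, Nusap1 and Cenpf, most of which act in G2 and mitosis.

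Of the 45 genes, 24 reached 1 FPKM in Cd73N WT, 27 in Cd73N Ezh2-cKO, 18 in Cd73P WT and 17 in Cd73P Ezh2-cKO. Over all genes with an OK status the share at 1 FPKM or more was 56.0%, 58.5%, 48.1% and 47.5% in the same order. Pcna, the sliding clamp of DNA polymerase that also serves DNA repair, and Cdk4 together held 57.8%, 52.6%, 49.3% and 47.3% of the FPKM summed over the 45 genes. Pcna was at 78.5, 75.0, 58.7 and 53.5 FPKM, so it was abundant in post-mitotic rods as well as in the other cells. Besides these, only Ccnd1, Ccnd3, E2f3, Mcm7 and Rrm1 reached 10 FPKM in any library. Where an estimate could be made from the bounds, the 45 values correspond to between 6.14 and 2720 counted fragments. The values of Cdk4 and Pcna in all libraries and of Mcm7 in Cd73N WT lie outside their own bounds and gave no estimate. Nor did the lowest values, those of Rrm2, Bub1 and Aurkb in Cd73P WT and of Cdc6 and Aurkb in Cd73P Ezh2-cKO, whose lower bound is 0.

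**Figure D1:**
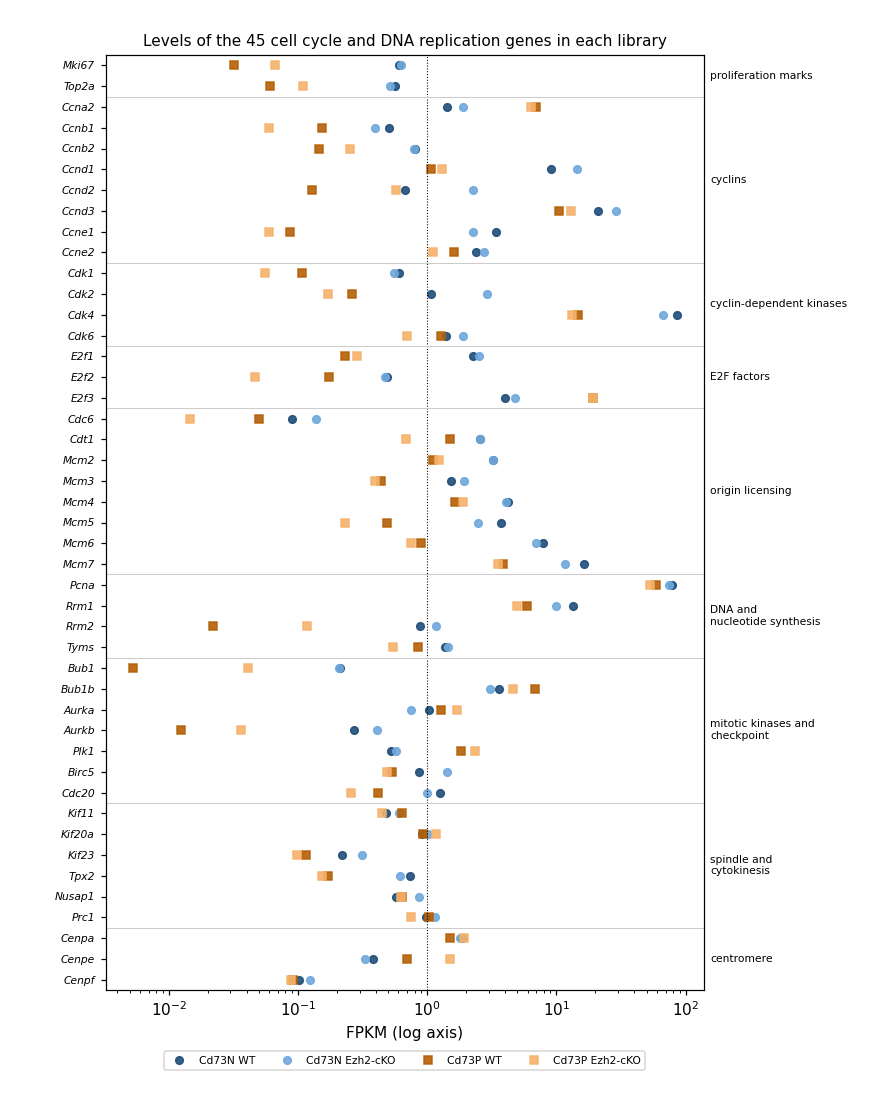
FPKM (log axis) of each of the 45 genes, grouped by role, with circles for the Cd73N and squares for the Cd73P libraries, dark for WT and light for Ezh2-cKO; the dotted line marks 1 FPKM. Mki67, Top2a and another 12 genes lie left of the line in all 4 libraries, whereas Cdk4 and Pcna lie at 13.2 FPKM or more throughout.

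The genotype comparison asks how the cycle genes stood in the retina whose Ezh2 was floxed. In Cd73N, 3 of 45 genes (6.67%) were higher in the library labelled Ezh2-cKO, namely Ccnd2, Cdk2 and Ccnd1, and 0 were lower. The background was 7.18% higher and 1.71% lower over 21705 genes, so the share of higher genes was near it. Of the 45 genes, 23 had a difference above 0 and 22 below. The median was 0.05 over the 29 genes at 1 FPKM or more in 1 of the 2 libraries, beside -0.04 over all 12845 such genes.

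Ccnd1 encodes cyclin D1, the main D cyclin of retinal progenitors and is also expressed in Müller glia. It lies at chromosome 7, 152115836 to 152125830, on the minus strand of mm9. Its FPKM was 9.06 in Cd73N WT, 14.5 in Cd73N Ezh2-cKO, 1.07 in Cd73P WT and 1.31 in Cd73P Ezh2-cKO. The 2 Cd73N libraries were far above the Cd73P libraries, and within Cd73N the library labelled Ezh2-cKO was 1.6-fold higher, a difference of 0.62 ± 0.055. In Cd73P the genotype difference was 0.16 ± 0.091, which is within 2 counting SE.

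Ccnd2, which encodes cyclin D2, lies at chromosome 6, 127075727 to 127101066, on the minus strand. It was at 0.675, 2.26, 0.129 and 0.578 FPKM in the same order. The library labelled Ezh2-cKO was the higher one in both fractions, 3.34-fold in Cd73N and 4.48-fold in Cd73P. On the log2(FPKM + 1) scale these were 0.96 ± 0.066 and 0.48 ± 0.051, the second short of the 1.5-fold line. An overlapping transcript, 9330179D12Rik, reached no more than 0.0822 FPKM.

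Ccnd3, the D cyclin with the highest level here, stood at 21.0, 28.9, 10.5 and 13.1 FPKM. The difference between genotypes was 0.44 ± 0.054 in Cd73N and 0.28 ± 0.073 in Cd73P, or 1.37-fold and 1.24-fold, short of the 1.5-fold line. The listed interval of Ccnd3 overlaps that of Bysl, at 8.99 to 11.5 FPKM, and the library kit kept no strand, so reads from the shared part cannot be told apart. Summed over the 3 D cyclins, FPKM was 30.8 in Cd73N WT and 45.6 in Cd73N Ezh2-cKO, and 11.7 and 15.0 in Cd73P.

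Of the 4 CDKs, Cdk2 alone reached 1.5-fold between genotypes on the log2(FPKM + 1) scale, in Cd73N. The gene, whose product is the partner of cyclins E and A, is at chromosome 10, 128134995 to 128142107, on the minus strand, and measured 1.06 FPKM in Cd73N WT and 2.91 in Cd73N Ezh2-cKO. This 2.73-fold difference was 0.92 ± 0.094 on the log2(FPKM + 1) scale. In Cd73P it was low in both genotypes, at 0.264 and 0.172 FPKM. Cdk4, the D cyclin partner, was at 85.6 and 66.9 FPKM in Cd73N and 14.6 and 13.2 in Cd73P, with differences of -0.35 ± 0.034 and -0.14 ± 0.085. The plain ratios were 0.781 and 0.900. Cdk4 FPKM lie outside their own bounds, so this SE is a rough guide only. Cdk6, the other D cyclin partner, was at 1.41, 1.90, 1.28 and 0.696 FPKM. The genotype difference was 0.27 ± 0.11 in Cd73N and -0.43 ± 0.11 in Cd73P, or 1.35 and 0.545 as plain ratios. Cdk1, the mitotic kinase, was 0.601 FPKM at most.

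The 12 Müller glia markers were higher by 1.46 to 3.16 in the same Cd73N library in which Ccnd1, Ccnd2 and Cdk2 were higher, and their part in the D cyclin and Cdk2 values was not tested. Those markers were not absent from WT, where their range in Cd73N was 3.99 to 357 FPKM. Other cells had higher markers in that library too, such as 4 of 10 microglia and 2 of 4 astrocyte markers, with 0 lower in either. Of 12 bipolar markers 8 were lower, and of 10 rod markers 5, with 0 higher in either. The part of these cells was not tested either. Markers of retinal progenitors were mixed in that comparison. Hes1 and Sox2, which Müller glia share, were higher by 2.23 and 2.11, while Sfrp2 was at 3.29 FPKM in WT and 2.38 in Ezh2-cKO, Fgf15 at 1.53 and 2.38, and Olig2 at 0.232 and 0.186.

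**Figure D2:**
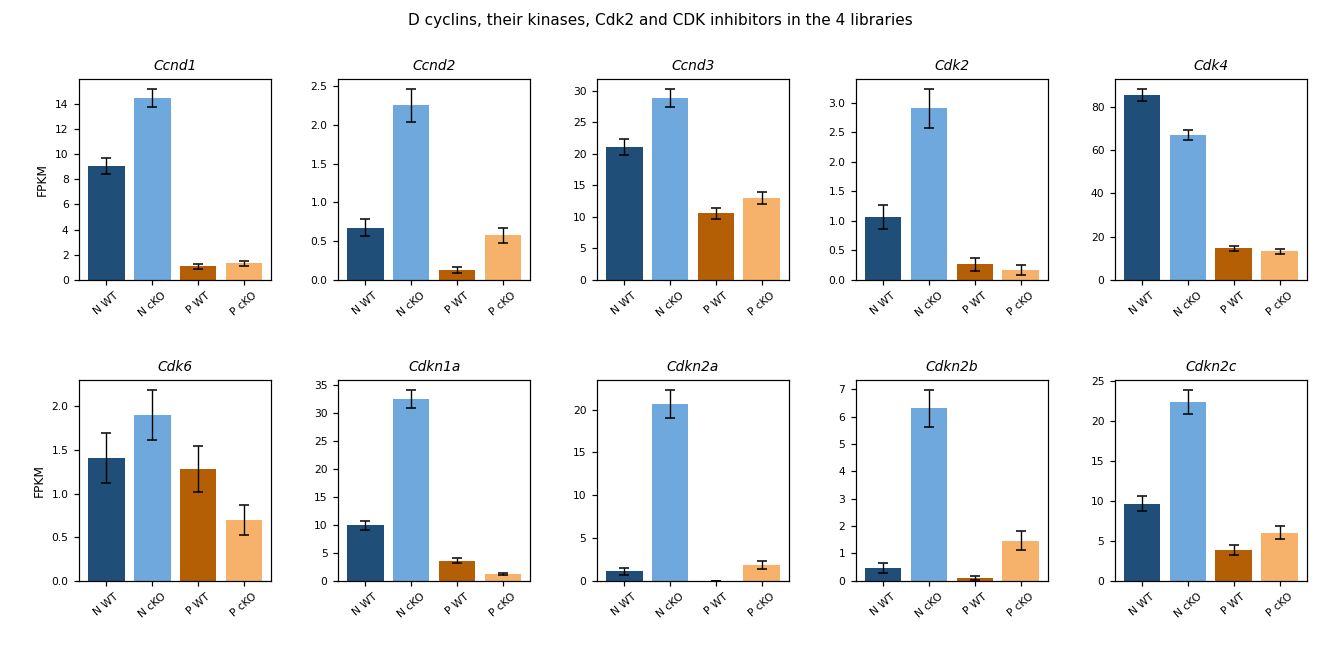
FPKM in the Cd73N (N) and Cd73P (P) libraries of WT and Ezh2-cKO (cKO) retina for D cyclins, CDKs and CDK inhibitors, each panel with its own axis from 0; error bars are 2 counting SE to each side. Ccnd1, Ccnd2, Ccnd3, Cdk2 and the inhibitors shown (Cdkn1a, Cdkn2a, Cdkn2b and Cdkn2c) have their tallest bar in Cd73N Ezh2-cKO, whereas Cdk4 is tallest in Cd73N WT. Cdkn1b, Cdkn1c and Cdkn2d, highest in other libraries, are not shown.

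Cyclins E and A stayed within 1.5-fold between genotypes on the log2(FPKM + 1) scale. Ccne1, the cyclin E1 gene, was at 3.39 FPKM in Cd73N WT and 2.25 in Cd73N Ezh2-cKO, a difference of -0.43 ± 0.12 and a plain ratio of 0.666. Ccne2 measured 2.39 and 2.75 FPKM in Cd73N and 1.61 and 1.12 in Cd73P. Ccna2, the cyclin of S phase and G2, was at 1.41 and 1.88 FPKM in Cd73N and 7.01 and 6.40 in Cd73P. E2f1 and E2f3, whose proteins activate S-phase genes, were at 2.28 and 2.54, and at 3.99 and 4.83 FPKM, in Cd73N.

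Origin licensing and DNA synthesis genes stayed within 1.5-fold between genotypes in Cd73N on the log2(FPKM + 1) scale. Plain ratios passed it for Mcm5, at 0.656, and for Cdc6, at 1.53 with 0.138 FPKM or less. Of the 8 licensing genes, 0 reached 1.5-fold, 6 had a difference below 0 and 2 above, and the median over the 8 was -0.03 with a range of -0.47 to 0.21. Mcm7, a helicase subunit, showed the lowest value, with 16.4 FPKM in WT and 11.6 in Ezh2-cKO. Mcm5, another subunit, was at 3.75 and 2.46 FPKM, or -0.46 ± 0.086. Mcm2 and Mcm4 were close to level, at 3.26 and 3.24 and at 4.24 and 4.09 FPKM. Rrm1, the large subunit of ribonucleotide reductase, was at 13.5 FPKM in WT, 1.35 times its level in Ezh2-cKO, a difference of -0.40 ± 0.049, while its partner Rrm2, the subunit that is made in S phase, was at 0.884 and 1.18.

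Of the 7 mitotic kinase and checkpoint genes, 0 reached 1.5-fold in Cd73N on the log2(FPKM + 1) scale, and 3 were above 0 and 4 below. The highest difference was that of Birc5, which encodes survivin of the chromosomal passenger complex. It was at 0.869 and 1.43 FPKM, a difference of 0.38 ± 0.16 and a plain ratio of 1.65. Spindle genes lay between 0.221 and 0.987 FPKM in WT and between 0.314 and 1.16 in Ezh2-cKO. Cenpa, the histone H3 variant of centromeres, was at 1.86 and 1.80 FPKM.

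In Cd73P, 0 of 45 genes reached 1.5-fold in either direction between genotypes on the log2(FPKM + 1) scale. The background was 2.26% higher and 2.39% lower over 21706 genes, and 20 of the 45 genes were at 1 FPKM or more in 1 of the 2 libraries. Their median difference was -0.05, beside -0.04 over all 10681 such genes, and of all 45 genes 18 were above 0 and 27 below. The 2 genes nearest the line were Cdt1, a licensing factor, and Cenpe, a kinetochore motor. Cdt1 was at 1.49 FPKM in WT and 0.688 in Ezh2-cKO, or -0.56 ± 0.12. Cenpe was at 0.693 and 1.49 FPKM, or 0.56 ± 0.057, and in Cd73N it was near level at 0.383 and 0.330. Bub1b, the checkpoint kinase-like protein BubR1, was at 6.84 and 4.61 FPKM in Cd73P, or -0.48 ± 0.075.

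**Figure D3:**
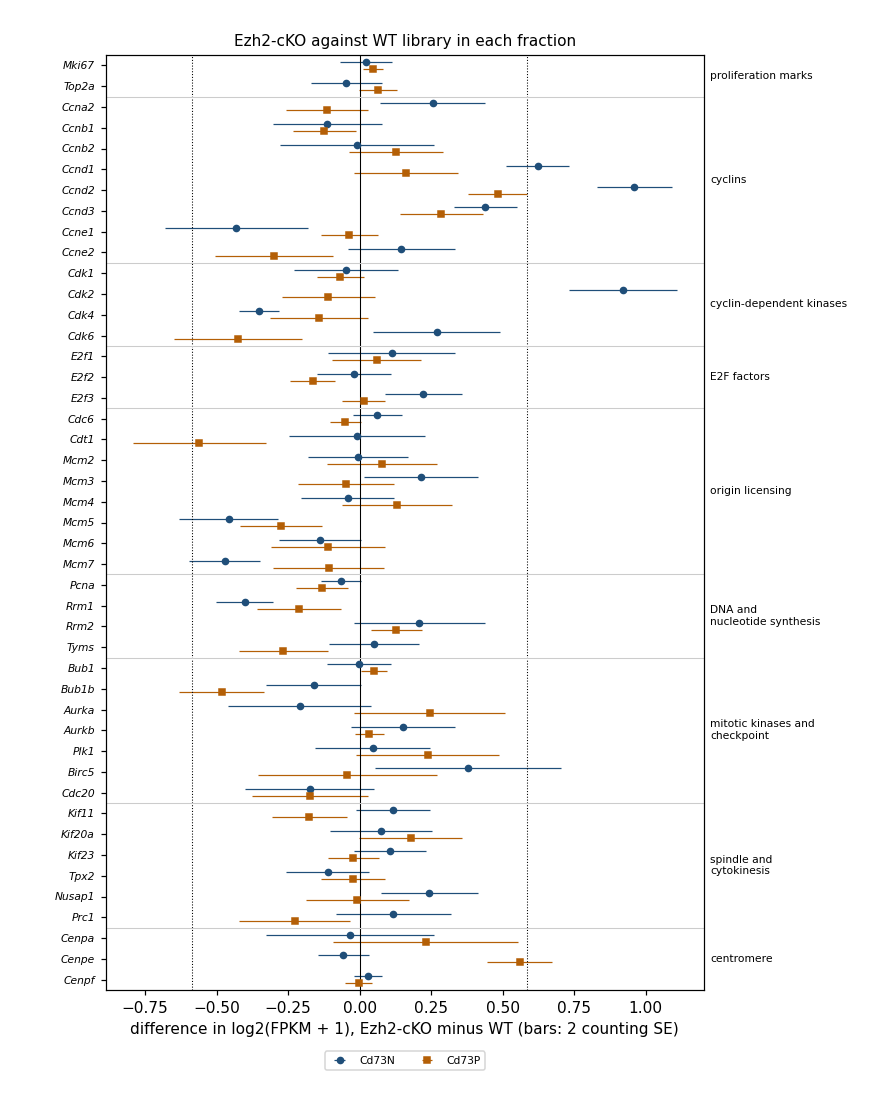
Difference in log2(FPKM + 1), Ezh2-cKO minus WT, of each of the 45 genes in Cd73N (circles) and Cd73P (squares); bars are 2 counting SE to each side and dotted lines mark 1.5-fold. Ccnd1, Ccnd2 and Cdk2 in Cd73N lie right of the upper line, and 0 genes lie left of the lower line in either fraction.

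The comparison of fractions asks which cycle genes belong to rods and which to the other retinal cells. In WT, 17 of 45 genes (37.8%) were lower in Cd73P and 4 (8.89%) were higher. The background was 27.9% lower and 9.07% higher over 21704 genes. In the libraries labelled Ezh2-cKO, 22 (48.9%) were lower and 5 (11.1%) higher, beside 29.1% and 8.4% over 21703 genes. The median over expressed members was -0.69 in WT, beside -0.47 over all expressed genes, and -0.85 in Ezh2-cKO, beside -0.46. Scaling to the median of expressed genes moved the median of all expressed genes up by 0.28 in WT and 0.24 in Ezh2-cKO, and that of the members to -0.56 and -0.65. Scaling to the FPKM sum moved all expressed genes by 0.38 and 0.19, and the members to -0.51 and -0.69. The genes lower in Cd73P in both genotypes numbered 16 (35.6%, beside 23.8% of all genes), and those higher in both 3 (6.67%, beside 6.70%). The genotype and fraction comparisons share libraries.

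Of the 8 licensing genes, 6 (75.0%) were lower in Cd73P in WT and 7 (87.5%) in Ezh2-cKO, beside 27.9% and 29.1% of all genes. All 8 differences lay below 0, from -2.22 to -0.05 in WT and from -2.19 to -0.17 in Ezh2-cKO. Of all genes at 1 FPKM or more in 1 of the 2 libraries, 68.0% and 68.9% lay below 0. The genes short of the line were Cdc6 in both genotypes, at 0.138 FPKM or less, and Cdt1 in WT. Mcm6 was at 7.83 FPKM in Cd73N WT and 0.896 in Cd73P WT, and at 7.02 and 0.757 in Ezh2-cKO. Mcm5 followed with 3.75 and 0.491, and with 2.46 and 0.233 FPKM. Mcm7 was 4.24-fold lower in WT and 3.29-fold lower in Ezh2-cKO, with 16.4 against 3.87 and 11.6 against 3.52 FPKM. Mcm2 and Mcm4 stayed at 1.11 to 1.88 FPKM in the Cd73P libraries.

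The G1 genes given here were lower in Cd73P by differing amounts. Cdk4 was 5.85-fold lower in Cd73P in WT and 5.08-fold lower in Ezh2-cKO, yet still at 14.6 and 13.2 FPKM there. Ccnd1 was 8.49-fold and 11.0-fold lower. Ccne1, at 0.0870 and 0.0598 FPKM in the Cd73P libraries, was 38.9-fold and 37.6-fold lower. E2f1 was 9.77-fold and 8.91-fold lower, at 0.233 and 0.285 FPKM in Cd73P. For comparison, the Cd73P level of the 12 Müller glia markers had a median of 6.71% of the Cd73N level in WT and 3.50% in Ezh2-cKO. For 12 bipolar markers it was 6.94% and 2.46%, and for 9 cone markers 5.93% and 2.08%, so these markers too stood lower against Cd73N in Ezh2-cKO. Between genotypes in Cd73P, 9 of the 12 bipolar and 7 of the 9 cone markers were lower. Their part in the larger count of lower genes in Ezh2-cKO was not tested. Cdk4 was at 17.1% and 19.7%, and Ccnd3 at 50.1% and 45.2%.

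In Ezh2-cKO, 6 further genes (13.3%, beside 5.28% of all genes) were lower in Cd73P by 1.5-fold that were short of the line in WT, namely Ccnd2, Ccne2, Cdk6, Cdt1, Birc5 and Tyms, the last encoding thymidylate synthase. Whether those fraction differences themselves differ between genotypes was not tested. Ccne2 was at 2.75 FPKM in Cd73N and 1.12 in Cd73P there, and its interval overlaps that of Ints8, at 8.54 to 9.44 FPKM.

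Of the 6 spindle and cytokinesis genes, 0 reached 1.5-fold between fractions on the log2(FPKM + 1) scale in either genotype. Over all genes 27.9% were lower in Cd73P in WT and 29.1% in Ezh2-cKO. Kif11, Kif23, Tpx2 and Nusap1 stayed under 1 FPKM, where the pseudocount makes 1.5-fold hard to reach. As plain ratios, Tpx2 was 4.31-fold and 3.98-fold lower in Cd73P, Kif23 1.92-fold and 3.2-fold, and Prc1 1.55-fold in Ezh2-cKO only. The other plain ratios were within 1.5-fold. Prc1, which bundles microtubules of the central spindle, was at 0.987 and 1.04 FPKM in WT and 1.16 and 0.746 in Ezh2-cKO. Kif20a, a cytokinesis motor, ranged from 0.918 to 1.18 FPKM over the 4 libraries, and its interval overlaps Brd8, at 16.4 to 24.6 FPKM, and Cdc23, at 12.3 to 21.2. Tpx2, which activates Aurora A, was the nearest to the line, at 0.742 and 0.172 FPKM in WT. In the synthesis group, Rrm2 was at 0.884 and 0.0220 FPKM in WT and at 1.18 and 0.117 in Ezh2-cKO, lower in Cd73P in both. Cdc20, the activator of the anaphase-promoting complex, was at 1.25 and 0.420 FPKM in WT and 0.993 and 0.260 in Ezh2-cKO.

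A small set ran the other way. E2f3 was at 3.99 FPKM in Cd73N WT and 19.1 in Cd73P WT, and at 4.83 and 19.3 in Ezh2-cKO, differences of 2.01 ± 0.057 and 1.80 ± 0.051. Of the 3 E2F genes, E2f3 was thus higher in the rod fraction, E2f1 was lower, and E2f2 stayed under 0.5 FPKM everywhere. Ccna2 was higher in Cd73P by 1.73 ± 0.086 in WT and 1.36 ± 0.080 in Ezh2-cKO. Its interval overlaps Exosc9, which was lower in Cd73P, at 27.6 and 12.3 FPKM in WT. Plk1, the Polo-like kinase of mitotic entry, was at 0.529 and 1.83 FPKM in WT and 0.578 and 2.34 in Ezh2-cKO, or 0.89 ± 0.11 and 1.08 ± 0.11. Bub1b was at 3.58 and 6.84 FPKM in WT, or 0.78 ± 0.078, and at 3.09 and 4.61 in Ezh2-cKO, or 0.45 ± 0.080. Aurka, the spindle pole kinase, and Cenpe were higher in Cd73P by 0.62 ± 0.12 and 0.91 ± 0.051 in Ezh2-cKO, and by 0.17 and 0.29 in WT. Their close partners Cdk1, Ccnb1, Ccnb2, Aurkb and Bub1 were all at 0.252 FPKM or less in Cd73P. Mki67 was at 0.0661 FPKM or less there.

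**Figure D4:**
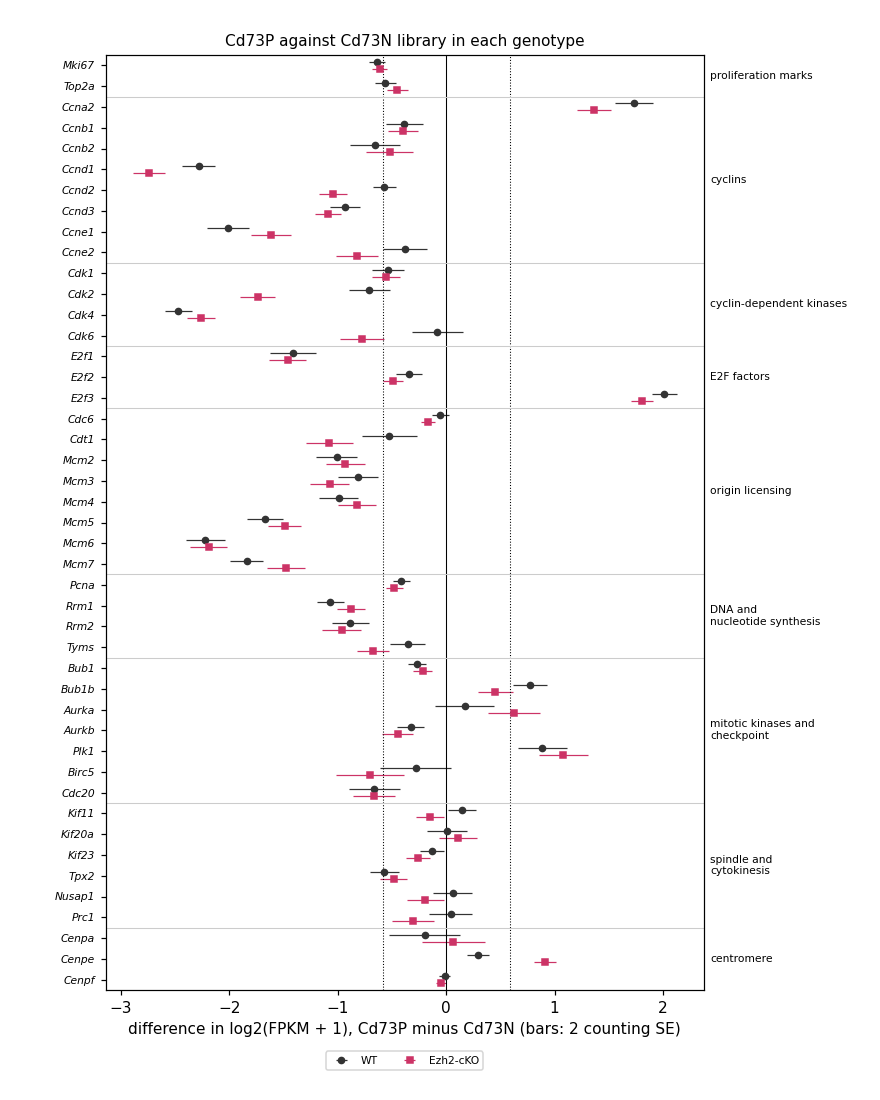
Difference in log2(FPKM + 1), Cd73P minus Cd73N, of each of the 45 genes in WT (circles) and Ezh2-cKO (squares); bars are 2 counting SE to each side and dotted lines mark 1.5-fold. The Mcm genes, Cdk4, Ccnd1, Ccne1 and E2f1 lie left of the lower line, and Ccna2, E2f3 and Plk1 lie right of the upper line in both genotypes.

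Promoter sequence was read for members that ran in opposite directions between the fractions, and for Cdk2, which stood out between genotypes. RefSeq promoter windows on GRCm38.p6, from 250 bases before to 50 after each start, held 37 of the 45 genes in 42 windows. The genes without a window are Aurkb, Ccna2, Ccnd1, Ccnd2, Ccne2, Kif20a, Mcm4 and Tpx2. The motifs searched on both strands were TTTCCCGC, TTTGGCGC and TTTCGCGC, to which E2F factors are known to bind, CCAAT, the site of NF-Y, and TTTGAA and TTCGAA, the cell cycle homology region (CHR) of many mitotic promoters. The stretches below run from 150 bases before the start to 30 after it, on the strand of the gene, with motif matches in capitals. E2f3 and Plk1 were higher in Cd73P in both genotypes and Bub1b in WT only, while Mcm5 and Mcm6 were lower in both genotypes. The second window of E2f3, not printed, held none of these motifs.
E2f3, first of 2 windows, chr13:29986034-29986213, minus strand: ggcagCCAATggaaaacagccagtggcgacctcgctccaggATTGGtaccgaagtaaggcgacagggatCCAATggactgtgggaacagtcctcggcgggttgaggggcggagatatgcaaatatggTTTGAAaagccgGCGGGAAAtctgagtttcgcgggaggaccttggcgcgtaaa
Bub1b, chr2:118598061-118598240, plus strand: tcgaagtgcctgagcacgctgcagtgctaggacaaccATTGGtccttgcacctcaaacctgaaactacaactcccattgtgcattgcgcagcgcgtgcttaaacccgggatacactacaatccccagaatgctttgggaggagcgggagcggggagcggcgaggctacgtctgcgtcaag
Plk1, chr7:122159285-122159464, plus strand: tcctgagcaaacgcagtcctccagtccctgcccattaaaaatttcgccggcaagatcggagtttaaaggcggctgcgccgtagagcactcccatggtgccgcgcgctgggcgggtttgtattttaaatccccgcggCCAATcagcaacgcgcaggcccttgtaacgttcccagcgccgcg
Mcm5, chr8:75109359-75109538, plus strand: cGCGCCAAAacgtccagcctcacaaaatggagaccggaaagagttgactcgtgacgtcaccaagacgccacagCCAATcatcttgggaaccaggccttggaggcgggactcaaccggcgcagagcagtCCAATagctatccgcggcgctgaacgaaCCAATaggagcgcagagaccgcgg
Mcm6, chr1:128359676-128359855, minus strand: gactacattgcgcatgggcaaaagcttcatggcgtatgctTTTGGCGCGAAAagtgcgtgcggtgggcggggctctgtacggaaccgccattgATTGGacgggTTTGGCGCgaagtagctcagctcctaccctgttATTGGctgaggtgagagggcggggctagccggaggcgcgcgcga
Cdk2, chr10:128705022-128705201, minus strand: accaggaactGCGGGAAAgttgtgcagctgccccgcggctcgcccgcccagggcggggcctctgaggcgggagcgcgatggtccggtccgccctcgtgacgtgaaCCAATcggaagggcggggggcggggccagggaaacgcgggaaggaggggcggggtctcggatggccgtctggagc
Matches may overlap, as in Mcm6, where TTTGGCGC and the reverse strand of TTTCGCGC share bases. An E2F motif was found in 23.8% of the 42 windows, beside 1.84% of all 32851 windows. For CCAAT the shares were 73.8% and 37.4%, and for a CHR 45.2% and 19.2%. By role, 6 of 7 licensing genes held an E2F motif, among them Mcm3, Mcm5, Mcm6 and Mcm7. Of 13 kinase, checkpoint, spindle, cytokinesis and centromere genes, 10 held a CHR and 0 an E2F motif of these letters. Bub1b and Plk1 are among the 10, with a CHR that lies in the window but outside the stretch printed. A match is a description of the window, and these libraries hold no measure of binding.

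Other genes of the same pathways, from 4 lists, were compared between genotypes in the same way. Of 37 other replication genes, 0 were higher and 2 lower in Ezh2-cKO within Cd73N, and 0 higher and 1 lower within Cd73P. The lower shares were 5.41% and 2.70%, beside the 1.71% and 2.39% of all genes. In Cd73N, 29 of the 37 were below 0 with a median of -0.18 over the 37, beside 0.0 over all genes, and the 30 at 1 FPKM or more in 1 of the 2 libraries had a median of -0.27, beside -0.04 over all such genes. The 2 lower genes were Rpa1, the large subunit of the single-strand binding protein, at 85.6 and 52.9 FPKM, and Prim1, the primase, at 9.07 and 5.52. In Cd73P the lower gene was Rnaseh2a, a subunit of the nuclease that removes RNA from DNA, at 4.75 and 2.78 FPKM. Scaled to the FPKM sum, which moved all expressed genes up by 0.13 in Cd73N, the list's median was -0.16, and scaled to the median it was -0.21. Markers of other cells were lower in the same library, 8 of 12 bipolar markers with a median of -0.79 over the 12, and 5 of 10 rod markers with a median of -0.50, and their part in the list's values was not tested.

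Of 45 other mitosis genes, 2 were higher and 1 lower in Cd73N, and 3 were higher and 0 lower in Cd73P. The higher shares were 4.44% and 6.67%, beside 7.18% and 2.26% of all genes, and the lower share in Cd73N was 2.22%, beside 1.71%. Spc25, a subunit of the Ndc80 complex at kinetochores, was at 22.8 and 75.2 FPKM in Cd73N, and at 1.32 and 2.94 in Cd73P, differences of 1.68 ± 0.056 and 0.76 ± 0.14. In Cd73N its level was above that of every mitosis gene among the 45. Kif4, a chromosome-arm motor, was at 0.507 and 1.74 FPKM in Cd73N, and is named because the count is small, after its values were seen. Cdc25c, a phosphatase of mitotic entry, was lower in Cd73N at 4.30 and 2.12 FPKM. In Cd73P, Racgap1, a GTPase-activating protein of the central spindle, was at 7.38 FPKM in WT and 31.6 in Ezh2-cKO, or 1.96 ± 0.057. It was at 1.74 and 2.31 in Cd73N. Pttg1, which encodes securin, was at 11.4 and 18.1 FPKM in Cd73P and at 32.9 and 32.4 in Cd73N.

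Among the cycle genes examined, Cdkn2a and Cdkn2b had the largest genotype differences in Cd73N. Of 10 inhibitors and pocket proteins, 4 were higher and 0 lower in Cd73N, where 7.18% and 1.71% of all genes were. Cdkn2a, which encodes p16Ink4a and p19Arf, was at 1.10 FPKM in Cd73N WT and 20.7 in Cd73N Ezh2-cKO, an 18.8-fold ratio. It is listed at 0 in Cd73P WT and stood at 1.87 in Cd73P Ezh2-cKO. Cdkn2b, the neighbouring p15Ink4b gene, was at 0.471 and 6.31 FPKM in Cd73N, and at 0.0915 and 1.47 in Cd73P. Cdkn2c (p18Ink4c) was at 9.65 and 22.4 FPKM in Cd73N. Cdkn1a, which encodes p21, was at 9.88 and 32.5 FPKM in Cd73N, or 1.62 ± 0.063, and at 3.60 and 1.20 in Cd73P, or -1.07 ± 0.11. In Cd73P, 2 of the 10 were higher, Cdkn2a and Cdkn2b, named because the count is small, and Cdkn1a was lower, beside 2.26% and 2.39% of all genes. Rb1, the retinoblastoma gene, was at 21.7 and 23.5 FPKM in Cd73N and 19.5 and 15.6 in Cd73P. The 4 inhibitors that were higher did so in the library with the higher Müller glia markers, whose part in their values was not tested.

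Of 19 other G1 cyclins, CDKs and E2F family genes, 2 were higher and 1 lower in Cd73N, and 0 were higher and 1 lower in Cd73P. The shares were 10.5% higher and 5.26% lower in Cd73N and 5.26% lower in Cd73P, beside 7.18%, 1.71% and 2.39% of all genes. Mycn, the Myc factor of retinal progenitors, was the lower gene in both, at 53.0 and 32.2 FPKM in Cd73N and 9.06 and 2.73 in Cd73P. E2f5, an E2F that represses, was at 4.69 and 8.38 FPKM in Cd73N, and Tfdp2, an E2F dimer partner, at 3.09 and 5.25.

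**Figure D5:**
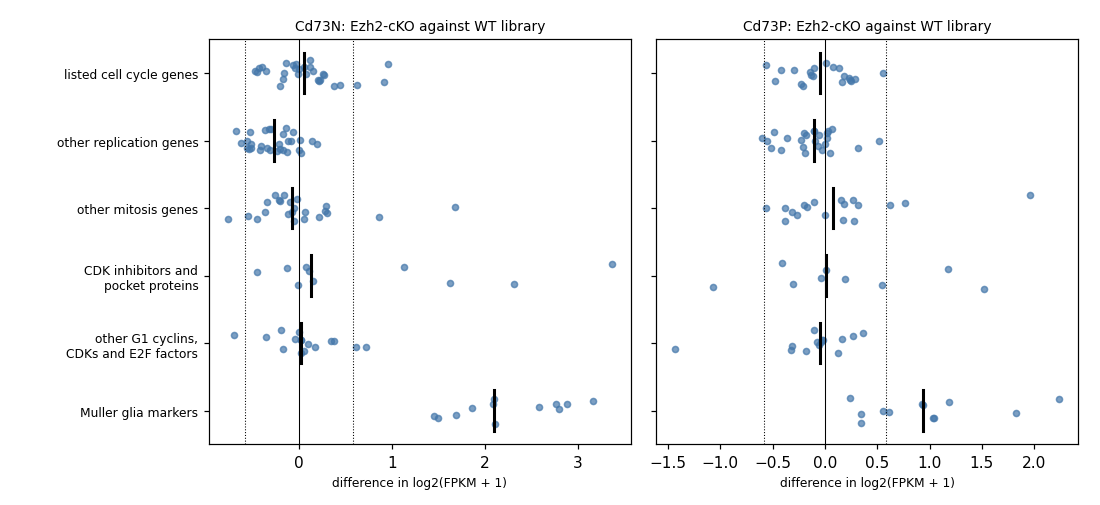
Difference in log2(FPKM + 1), Ezh2-cKO minus WT, in Cd73N (left) and Cd73P (right); points are genes at 1 FPKM or more in 1 of the 2 libraries, with all 12 Müller glia markers shown, thick bars are medians and dotted lines mark 1.5-fold. The median of other replication genes lies at -0.27 in Cd73N, the 4 highest CDK inhibitors lie between 1.13 and 3.37, and the Müller glia markers between 1.46 and 3.16.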

How the data were processed

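Poly(A) RNA of the 4 sorted cell pools was sequenced by the authors as single-end tags with an unstranded kit. Reads were processed with bcl2fastq 1.8.4, TopHat2 2.0.8b (mm9) and Cufflinks 2.1.1, which gave the deposited FPKM and its bounds per gene. The number of retinas pooled at this age is not given in the sources used here, and read totals are unknown.

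Libraries were joined by gene symbol, rows sharing a symbol were summed, and 727 small RNA symbols were left out. Differences were taken on log2(FPKM + 1). The SE was the width between the bounds divided by 4. A gene needed an OK status in both libraries, and medians needed 1 FPKM in 1 of the 2. All 45 members were found; those named in full are Mki67, Top2a, the D cyclins, Cdk4, Cdk6 and each member past 1.5-fold with 2 FPKM in 1 of the 2 libraries. For each pathway list, up to 5 genes past 1.5-fold at 2 FPKM were named. Promoters were chosen after their genes' values were seen, since the rule set for them, mitotic or replication members past 1.5-fold between genotypes, found 0. Members and lists were chosen with earlier results of these data known. Positions of all 45 members overlapped genes of the same name on NCBIM37 (mm9). The calling step was tested on simulated counts, with 2-fold changes placed only in genes with a mean of at least 10 FPKM in Cd73N. Only 7 of the 45 genes reached 10 FPKM in any library, so calls of low genes were not tested that way. The steps were run in Python 3 with pandas.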

Additional observations from a re-analysis of the deposited data

Results flagged for a closer look

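Among the 45 genes and the list genes past 1.5-fold between genotypes, 3 had genotype differences of opposite signs in the 2 fractions. Each was beyond 2 counting SE. List genes short of 1.5-fold were not counted, and some had such opposite signs too. Pola1 was -0.32 ± 0.07 in Cd73N and 0.52 ± 0.07 in Cd73P, and Rb1 was 0.11 ± 0.036 and -0.30 ± 0.044. The difference between the fractions was not tested, since each group has 1 library. Cdk6 was 0.27 in Cd73N and -0.43 in Cd73P on the log2(FPKM + 1) scale, and it was the only 1 of the 45 genes to do so. Opposite signs of any size were seen in 21 of the 45 (46.7%), beside 33.5% of all genes. The 2 shares are not alike, since all genes include many with a difference of exactly 0, which has no sign. In Cd73N, 9860 of 21705 genes were above 0 and 8576 below, whereas 0 of the 45 members were at 0 FPKM in any library. Cdkn1a was 1.62 and -1.07. Tfdp2 was 0.61 and -0.31.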

How the results depend on the processing

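No paired analysis was possible because each group has 1 library. Of the member counts and medians, 68 of 96 values under the alternatives stayed close to those reported (counts within 1.5 times, medians within 2 counting SE), and 0 called values reversed. Values without a pseudocount cover only genes at 1 FPKM or more in both libraries compared, so they leave out the low genes. Between genotypes, in Cd73N, the 3 higher members became 0 with a 2-fold threshold or a pseudocount of 5, and the 0 lower became 1 (Mcm5) with a pseudocount of 0.1 and 2 (Ccne1, Mcm5) without one. In Cd73P, 0 higher became 1 (Cenpe) with median scaling and 3 (Ccnd2, Rrm2, Cenpe) with a pseudocount of 0.1, and 0 lower became 1 (Cdt1) with sum scaling and 5 (Ccnb1, Cdk6, E2f2, Cdt1, Mcm5) with a pseudocount of 0.1. For Cd73P over Cd73N in WT, the 4 higher members became 2 with a 2-fold threshold or a pseudocount of 5. The 17 lower became 9 with a 2-fold threshold, 28 and 8 with pseudocounts of 0.1 and 5, and 8 without one. That last count leaves out low genes such as Ccne1, which was 38.9-fold lower as a plain ratio. The median of -0.69 became -1.08 and -0.24 with those pseudocounts and -0.41 over all members. In Ezh2-cKO, the 5 higher became 3 with a 2-fold threshold and 2 with a pseudocount of 5 or none. The 22 lower became 12 with a 2-fold threshold, 7 with a pseudocount of 5 and 8 without one. The median of -0.85 became -1.30 and -0.37 with pseudocounts of 0.1 and 5, -1.06 without one, -0.65 with median scaling and -0.55 over all members. A larger pseudocount or threshold shrinks or removes low genes by construction. Leaving out members that overlap another gene, an alternative added after seeing the data, left 2 of the 3 higher members in Cd73N. Low FPKM limit precision most in Cd73P.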
